A study of Mus musculus with 4 samples.

Results

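The prostaglandin and leukotriene pathway was followed through 10 genes: Pla2g4a, Ptgs1, Ptgs2, Ptges, Ptger2, Ptger4, Ptgir, Alox5, Alox5ap and Ltc4s. Probe sets are sets of short oligonucleotides against the same transcript. Every probe set was taken where the platform annotation gave it only 1 of these genes. This gave 13 probe sets for 9 of the 10 genes, out of 45101 probe sets and 18193 genes on the array, and Ptgs1 was not analysed here. The arrays measured RNA of bone marrow-derived macrophages on the C57BL/6 background, grown for 5 days with 10% serum and 10% L929 supernatant, which supplies macrophage colony-stimulating factor. The 4 groups were cells with knockout of both Hes1 and Hey1 (DKO) given 2 ng/ml of LPS for 3 h, untreated DKO cells, wild-type (WT) cells given the same LPS, and untreated WT cells. Hes1 and Hey1 encode transcriptional repressors of the basic helix-loop-helix family, and LPS is the bacterial ligand of the receptor TLR4. Neither the way the alleles were deleted nor the number of mice behind each culture is given in the sources used here. The study asked which inflammatory genes depend on Hes1 and Hey1.

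Prostaglandins and leukotrienes are lipid mediators made from arachidonic acid, which a cytosolic phospholipase frees from membranes. Cyclooxygenases turn it into prostaglandin H2, from which terminal synthases make prostaglandin E2 and its relatives, while 5-lipoxygenase and its activating protein start the leukotriene branch. Macrophages have both branches, and the induction of cyclooxygenase-2 by LPS is a classical feature of their activation.

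Each group had 1 array, so no difference below was tested or has a replicate check, and the number of arrays limits the precision. Intensities are in linear units, and a floor was set at 52.9, the pooled median over probe sets and arrays; readings below it have no order. A gene is called higher or lower in a comparison where its brightest probe set differed by at least 2-fold. Where 1 of the arrays compared lay under the floor the difference is a bound, written as at least N-fold. Array medians were 50.8 for DKO with LPS, 51.0 for untreated DKO, 50.9 for WT with LPS and 59.1 for untreated WT. Among the 16053 probe sets of middling intensity, untreated WT was brighter than the median of the other arrays by a median log2 ratio of 0.22, and among the 9369 probe sets of at least 500 units on every array by 0.020. Pla2g4a, Ptger2, Alox5ap, Ltc4s and the brighter Ptger4 probe set belong to the bright class. The 3' to 5' ratio of the Gapdh control probe sets lay between 0.840 and 0.877 on the arrays.

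All 8 macrophage markers, Adgre1 and Csf1r among them, were above the floor on every array. Their summed intensity was 127804 in DKO cells with LPS and 101407 in untreated DKO cells, against 120106 in WT cells with LPS and 81447 in untreated WT cells. Within it Cd14 read 30625 units with LPS and 12234 without in DKO cells, and 26767 and 9103 in WT cells. Mertk, Fcgr1 and Itgam read lower with LPS in both genotypes and the other markers higher, so the sum does not measure macrophage content. Of 9 mast cell and basophil markers 8 were under the floor on every array, and so were all markers of dendritic cells, B cells and fibroblasts that were on the array. Of 5 platelet and megakaryocyte markers 3 were above the floor on every array, among them Pf4 at 3964 to 6690 units. So were Kdr, 1 of 4 endothelial markers, at 286 to 635 units, and S100a8, 1 of 7 neutrophil markers. Siglecf of the eosinophil list and Cd8a of the T cell list were above it on 2 arrays each. Hes1 gave 5.80 and 2.14 units in DKO cells with and without LPS, against 26.7 and 45.4 in WT cells, all under the floor. Hey1 gave 10.2 and 9.17 against 17.3 and 57.2. With signal this low, and with the deleted exons not given in the sources used here, the genotype labels have little check here.

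The promoter windows of the 3 genes that were higher with LPS in both genotypes by every probe set are shown. Pla2g4a was called higher only in DKO cells and Ptger4 only in WT cells, and their windows are not shown. The windows run from 250 bases before to 50 bases after the gene's start in RefSeq (GRCm38.p6). They are written 5′ to 3′ on the gene's strand, and carry motif matches in capitals.
Ptgs2, chr1:150099781-150100080, plus strand: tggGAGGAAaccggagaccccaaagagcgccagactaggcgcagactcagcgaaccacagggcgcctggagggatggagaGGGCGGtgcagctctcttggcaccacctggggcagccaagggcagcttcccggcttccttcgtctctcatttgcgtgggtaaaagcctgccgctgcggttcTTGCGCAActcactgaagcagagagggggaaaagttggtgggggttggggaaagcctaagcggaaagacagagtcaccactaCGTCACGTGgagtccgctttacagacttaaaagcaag
Ptges, chr2:30903248-30903547, minus strand: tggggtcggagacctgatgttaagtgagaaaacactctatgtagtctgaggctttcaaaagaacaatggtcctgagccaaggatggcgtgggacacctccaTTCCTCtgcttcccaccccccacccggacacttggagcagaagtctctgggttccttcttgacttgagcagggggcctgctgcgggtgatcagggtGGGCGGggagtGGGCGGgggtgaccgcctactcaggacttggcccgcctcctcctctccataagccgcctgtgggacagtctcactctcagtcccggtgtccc
Ptgir, chr7:16906240-16906539, plus strand: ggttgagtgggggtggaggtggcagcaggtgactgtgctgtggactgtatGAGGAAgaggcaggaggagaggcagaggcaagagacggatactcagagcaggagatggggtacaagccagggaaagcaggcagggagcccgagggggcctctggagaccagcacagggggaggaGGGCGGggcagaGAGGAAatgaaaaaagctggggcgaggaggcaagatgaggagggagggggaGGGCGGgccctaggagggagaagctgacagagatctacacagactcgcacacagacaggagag
The 10 motifs were searched on both strands: the NF-kB consensus, the CREB half-site TGACG, the C/EBP palindrome TTGCGNAA, the class B E-box CACGTG and the N-box CACNAG that Hes proteins can bind, the AP-1 site TGANTCA, the GC box GGGCGG, the EGR site GCGNGGGCG, the PU.1 core GAGGAA and the TATA box TATAAA.

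The Ptgs2 window held a C/EBP palindrome 69 bases before the annotated start, a motif present in 0.798% of all 32851 windows. A CREB half-site on the opposite strand began 13 bases after the start and shared 2 bases with a class B E-box that began 16 bases after it. These motifs occurred in 20.8% and 7.15% of all windows. The Ptges window held 2 GC boxes, 53 and 42 bases before the start, and the Ptgir window held 2, at 76 and 13 bases before it, a motif of 35.7% of windows. Each of the 3 windows also held a PU.1 core, found in 28.3% of all windows. The NF-kB consensus, N-box, AP-1, EGR and TATA letters, present in 8.46%, 42.5%, 7.81%, 5.55% and 13.6% of windows, had no match in these 3. Windows of the other members were searched where there was one. N-box letters matched in both Pla2g4a windows and the Ltc4s window, and TATA letters in 1 Pla2g4a window. The motifs were chosen after the windows were seen, so these shares do not show that a match is unusual. A match is a description of letters in a window and says nothing of binding in these cells.

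The comparison of LPS with no treatment, made within each genotype, asked how the pathway responds to TLR4 activation. The inducible enzymes of prostaglandin E2 synthesis, Ptgs2 and Ptges, and the prostacyclin receptor gene Ptgir were higher with LPS in both genotypes. None of the 3 leukotriene genes passed 2-fold in either. In DKO cells 4 of 9 members were higher with LPS and none was lower, where 4.66% of 11241 genes were higher and 4.77% lower. In WT cells 4 of 9 were higher and none was lower, where 3.36% of 11491 genes were higher and 3.41% lower. The split of all genes depended on scaling: 524 higher and 536 lower in DKO cells became 603 and 404 after cyclic loess, and 386 and 392 in WT cells became 520 and 194 once array medians were equalised, 428 and 255 by quantile normalization and 460 and 224 by loess. The median log2 difference of the 9 members was 0.78 in DKO cells and 0.85 in WT cells, beside -0.10 and -0.086 for all genes. At a 1.5-fold mark 5 members were higher and 1, Ptger2, was lower in DKO cells, where 8.94% of all genes were higher and 14.5% lower. The Ptger2 call, at a log2 difference of -0.59, ended under all 3 other scalings and with an offset in place of the floor (-0.58 to -0.46). In WT cells 5 members were higher at that mark and none was lower, where 6.93% of all genes were higher and 12.9% lower.

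**Figure D1:**
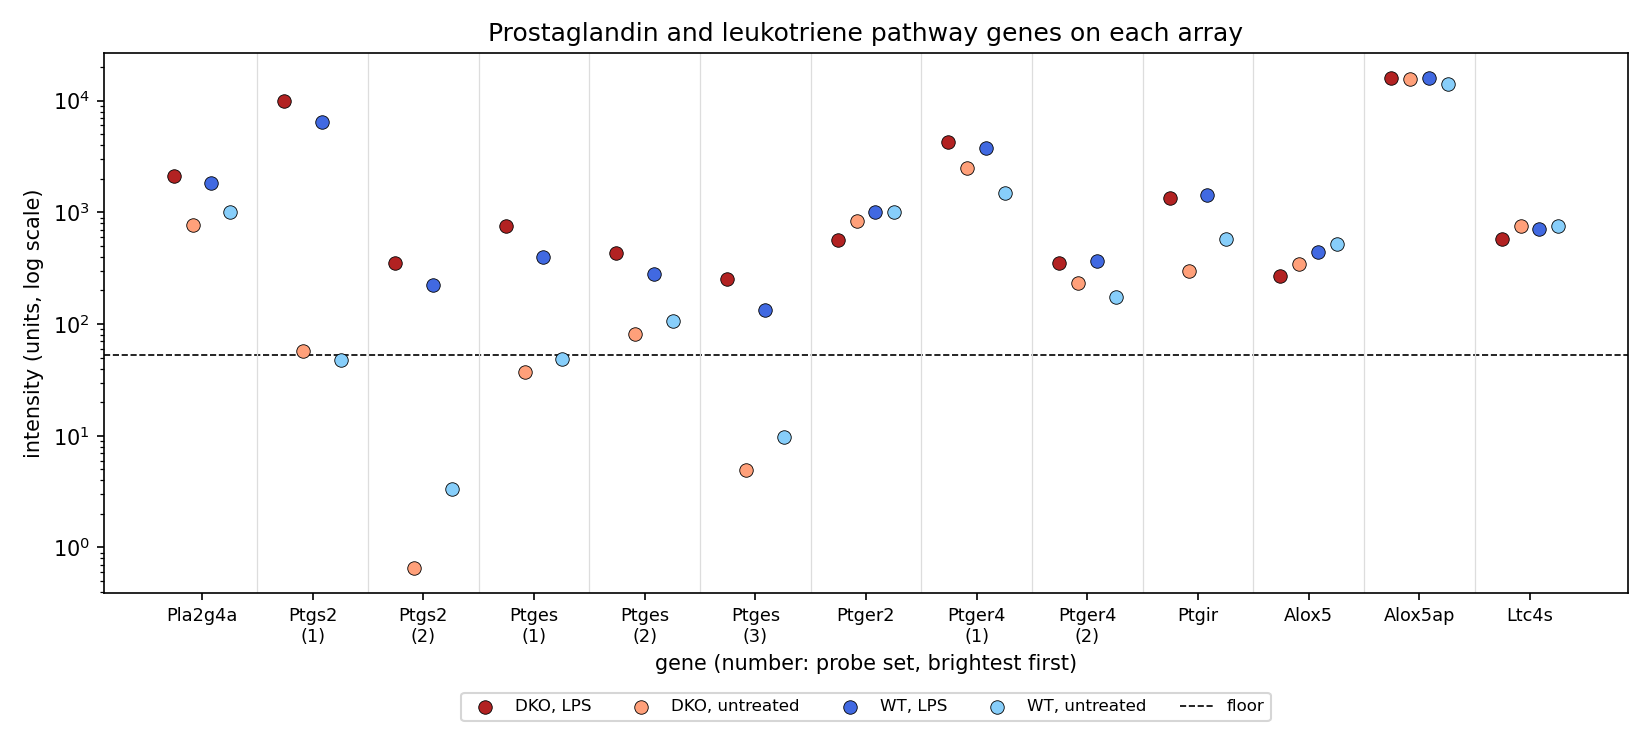
Intensity of each probe set (y axis, log scale, units) on each of the 4 arrays, by gene (x axis), with the floor as a dashed line. The points are single arrays. Ptgs2 and Ptges with LPS lie far above the untreated points in both genotypes, and Alox5ap stays between 14029 and 16119 units.

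Pla2g4a encodes the cytosolic phospholipase A2 that releases arachidonic acid. Its probe set read 2110 units with LPS and 778 without in DKO cells, and 1840 with LPS and 1018 without in WT cells. Both LPS arrays were above both untreated arrays. The gene was 2.71-fold higher with LPS in DKO cells, and the 1.81-fold difference in WT cells fell short of the 2-fold mark, passing it with array medians set equal (log2 difference 1.07). Pla2g4a and Ptgs2 are neighbours on mouse chromosome 1, with no protein-coding gene between them in RefSeq.

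Ptgs2 encodes cyclooxygenase-2, the inducible enzyme of prostaglandin synthesis. Its brighter probe set read 10038 units with LPS and 57.3 without in DKO cells, and 6406 with LPS and 47.8 without in WT cells. Transcripts were thus near or under the floor at rest and far above it with LPS in both genotypes. The gene was 175-fold higher with LPS in DKO cells and at least 121-fold higher in WT cells. The second probe set read 355 and 0.654 units in DKO cells with and without LPS, and 222 and 3.32 in WT cells, giving at least 6.70-fold and at least 4.20-fold. Since the untreated values sit near or under the floor, the size of these folds is loose.

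Ptges encodes microsomal prostaglandin E synthase-1, which works with cyclooxygenase-2 to make prostaglandin E2. Its brightest probe set read 754 units with LPS and 37.0 without in DKO cells, and 399 with LPS and 49.0 without in WT cells, at least 14.2-fold and at least 7.54-fold higher. The second probe set was above the floor on every array, at 434 and 82.0 units in DKO cells and 279 and 106 in WT cells. It gave 5.30-fold in DKO cells and 2.64-fold in WT cells. The third read 252 and 4.96 units in DKO cells and 134 and 9.79 in WT cells, at least 4.76-fold and at least 2.53-fold higher. All 3 probe sets thus passed 2-fold in both genotypes, and they disagree on the size.

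The receptors responded unevenly. Ptger4 encodes EP4, a prostaglandin E2 receptor that raises cyclic AMP. Its brighter probe set read 4303 units with LPS and 2508 without in DKO cells, and 3785 with LPS and 1507 without in WT cells. The ratio was 1.72 in DKO cells, short of the mark, and the gene was 2.51-fold higher with LPS in WT cells. The second probe set, at 353 and 235 units in DKO cells and 364 and 175 in WT cells, gave log2 differences of 0.58 and 1.06. Both probe sets therefore put the LPS arrays above the untreated ones, with the highest untreated level in DKO cells.

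Ptgir encodes the receptor for prostacyclin, also coupled to cyclic AMP. It read 1348 units with LPS and 297 without in DKO cells, and 1422 with LPS and 578 without in WT cells. It was 4.54-fold higher with LPS in DKO cells and 2.46-fold higher in WT cells. The LPS levels of the genotypes were close, and the untreated levels were not. Ptger2, which encodes the EP2 receptor for prostaglandin E2, read 562 units with LPS and 845 without in DKO cells, and 1001 with LPS and 1015 without in WT cells. The LPS ratio was 0.665 in DKO cells and 0.986 in WT cells, neither past the mark.

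The leukotriene genes showed no LPS difference past 2-fold. Alox5 encodes 5-lipoxygenase and read 267 units with LPS and 347 without in DKO cells, and 440 with LPS and 525 without in WT cells. Alox5ap encodes the 5-lipoxygenase-activating protein and read 16043 and 15579 units in DKO cells with and without LPS, and 16119 and 14029 in WT cells. Ltc4s encodes leukotriene C4 synthase and read 582 and 756 units in DKO cells, and 715 and 759 in WT cells. The LPS ratios of the 3 genes lay between 0.770 and 1.03 in DKO cells and between 0.839 and 1.15 in WT cells. The direction of the smallest of these differences, those of Alox5ap in both genotypes and Ltc4s in WT cells, turned round under other scalings.

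**Figure D2:**
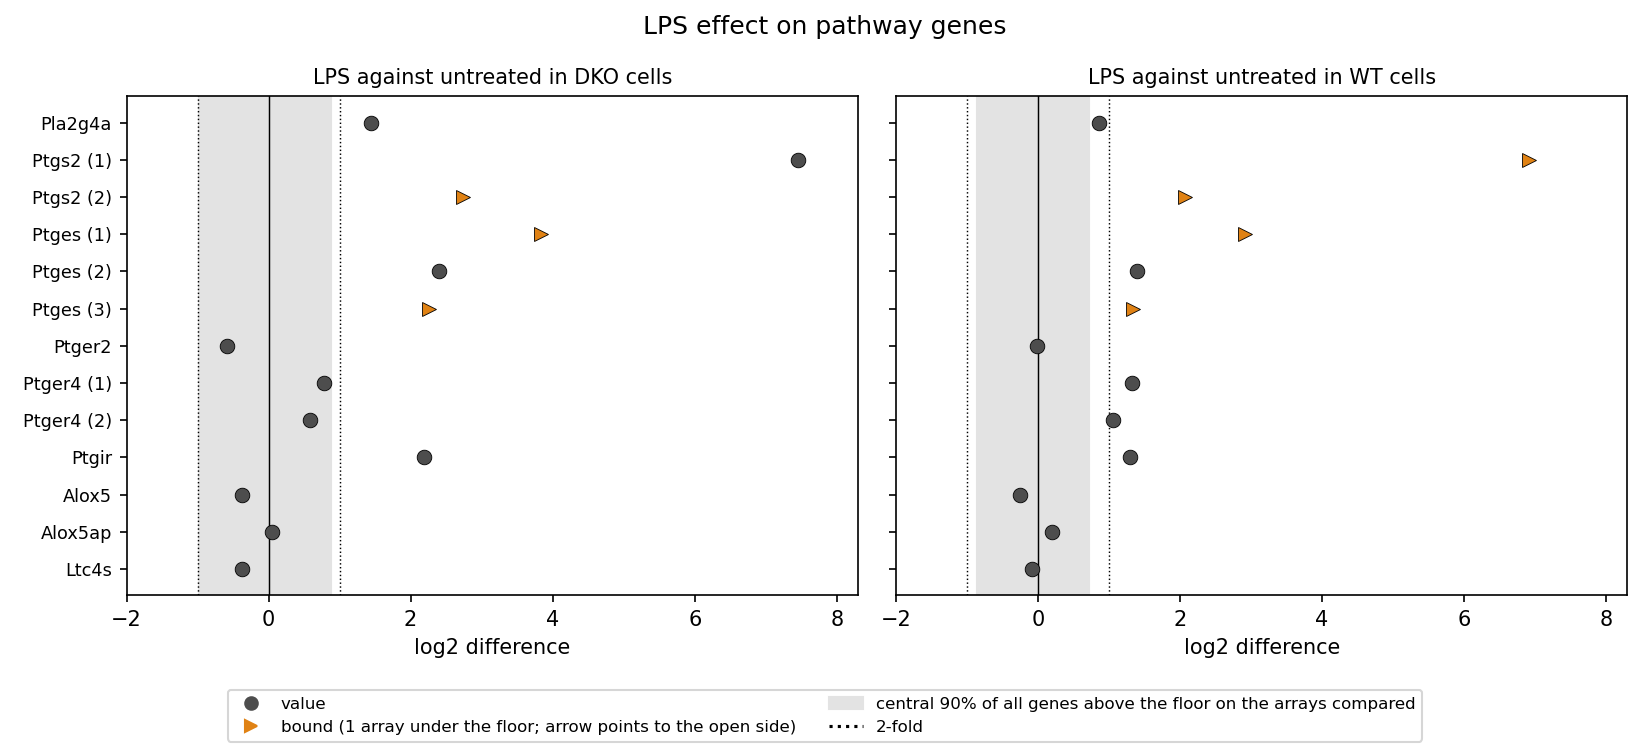
Log2 difference of LPS against untreated (x axis) for each probe set (rows) in DKO cells (left) and WT cells (right), with values as circles and bounds as arrowheads; the grey band holds the central 90% of all genes above the floor on the arrays compared. Ptgs2, Ptges and Ptgir lie to the right of the 2-fold line in both genotypes, and Alox5, Alox5ap and Ltc4s lie inside the band.

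The DKO against WT contrast in LPS-treated cells asked which pathway genes the loss of both repressors changes during activation. None of 9 members passed 2-fold, where 0.845% of 11236 genes were higher and 0.934% lower. Ptgs2 and Ptges read higher in DKO cells and Ptger2 and Alox5 read lower, all short of 2-fold. Ptges2, which encodes another prostaglandin E synthase, read 302 units in DKO cells and 382 in WT cells, 1.27-fold lower. That difference lay inside the central range of all genes. At a 1.5-fold mark 2 of 9 members were higher, Ptgs2 and Ptges, and 2 were lower, Ptger2 and Alox5, where 4.03% of all genes were higher and 5.03% lower. The Ptgs2 call at this mark ended under loess (log2 difference 0.574) and quantile normalization (0.583), against 0.648 as deposited. The median of the 9 members was -0.0068, beside -0.040 for all genes, and the central 90% of genes above the floor on both arrays ran from -0.57 to 0.49 on the log2 scale.

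Ptgs2 stood at 10038 units in DKO cells and 6406 in WT cells with LPS, a ratio of 1.57, and its second probe set gave a ratio of 1.59. Ptges stood at 754 units in DKO cells and 399 in WT cells, a ratio of 1.89, and its other probe sets gave 1.55 and 1.88. Each of these 5 probe sets read higher in DKO cells. They share their arrays and are not replicates. Of 8 genes taken as a check of LPS treatment, such as Tnf and Il6, 7 were higher with LPS in each genotype. Of all genes 4.66% were higher in DKO cells and 3.36% in WT cells. Between the LPS-treated genotypes 2 of the 8 were higher in DKO cells past 2-fold, Il1b and Cxcl1, and none lower. Of all genes 0.845% were higher and 0.934% lower. The median log2 difference of the 8 was 0.40, beside -0.040 for all genes. That list was chosen with earlier results of these data known.

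Ptger2 with LPS read 562 units in DKO cells and 1001 in WT cells, 1.78-fold lower. Alox5 read 267 against 440 units, 1.65-fold lower. Ltc4s, at 582 against 715 units, was 1.23-fold lower, and Alox5ap, at 16043 against 16119, had a DKO to WT ratio of 0.995. Pla2g4a, Ptger4 and Ptgir with LPS had DKO to WT ratios of 1.15, 1.14 and 0.948, all inside the central range of all genes.

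The comparison of the untreated cells asked what the double knockout changes at rest. None of the 8 members with a difference passed 2-fold, where 0.466% of 11380 genes were higher and 0.984% lower. These were 53 and 112 genes, against 97 and 43 once array medians were equalised, 66 and 69 by quantile normalization and 68 and 69 by loess. Equalising medians put the median log2 difference over all genes at 0.19, against -0.017 as deposited. Ptgir came closest, at 297 units in untreated DKO cells against 578 in untreated WT cells, 1.95-fold lower. Ptger4 read 2508 against 1507 units, 1.66-fold higher, and its second probe set gave 1.34-fold. With array medians equalised the order turned, with log2 differences of -0.75 for Ptgir and 0.95 for Ptger4. Ptgir stayed closest to 2-fold under loess (-0.93, against 0.72 for Ptger4) and quantile normalization (-0.90 against 0.75). Alox5 read 347 against 525 units, 1.51-fold lower. At the 1.5-fold mark this made 1 member higher and 2 lower, where 2.36% of all genes were higher and 4.96% lower. The Alox5 call, at a log2 difference of -0.596, ended under equal medians (-0.384), loess (-0.539), quantile normalization (-0.533) and the offset (-0.575).

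Of the others at rest, Pla2g4a read 778 units in DKO cells against 1018 in WT cells, 1.31-fold lower, and the second Ptges probe set read 82.0 against 106, 1.29-fold lower. The central 90% of genes ran from -0.53 to 0.42 on the log2 scale, and both values lay inside it. Ptger2, Alox5ap and Ltc4s had DKO to WT ratios of 0.833, 1.11 and 0.995. The brighter Ptgs2 probe set was above the floor only in DKO cells, by at least 1.08-fold.

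**Figure D3:**
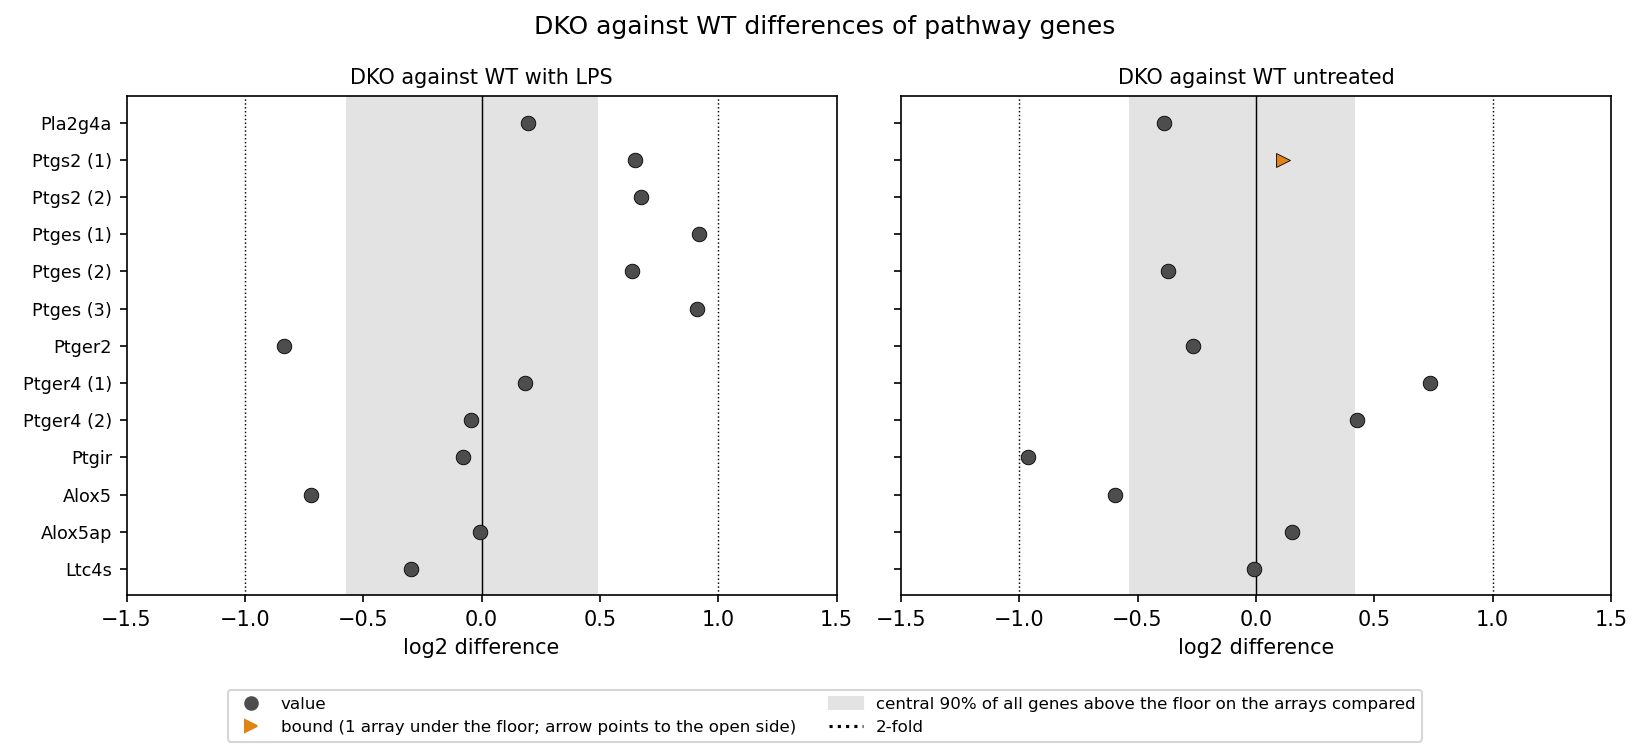
Log2 difference of DKO against WT (x axis) for each probe set (rows) with LPS (left) and untreated (right), with values as circles, bounds as arrowheads and the central 90% of all genes in grey. With LPS the 5 probe sets of Ptgs2 and Ptges lie to the right of the band and Ptger2 and Alox5 to the left; untreated, Ptgir lies nearest to the 2-fold line.

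Alox5 read lower in DKO than in WT cells in both states, short of 2-fold in each. Neutrophils are also rich in Alox5 transcripts, and 7 of 8 neutrophil markers were on the array. Their summed intensity was 467 and 379 units in DKO cells with and without LPS, against 626 and 583 in WT cells. Most of it came from S100a8, at 333 and 284 against 465 and 463 units, while the other 6 markers, S100a9, Elane and Ltf among them, were under the floor on every array. The part of these markers in the Alox5 difference was not tested. In bulk RNA, fewer cells of a type and less RNA per cell cannot be told apart.

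The difference of the LPS effects, DKO minus WT, asked whether induction itself differed by genotype. None of 8 members with a value or bound passed 2-fold by its brightest probe set, where 1.59% of 10459 genes were higher and 0.851% lower. These were 166 and 89 genes, against 100 and 203 once array medians were equalised, 124 and 110 by quantile normalization and 124 and 113 by loess. Ptges had no value by its brightest probe set, since both untreated arrays lay under the floor. Its second probe set, above the floor throughout, gave a log2 difference of 1.01, a 2.01-fold larger LPS effect in DKO cells, at the mark itself. This probe set was not recomputed under the other scalings. It belongs to the class of middling intensity, in which untreated WT was brighter by a median log2 ratio of 0.22.

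Ptgir and Pla2g4a also had larger LPS effects in DKO cells, by 0.88 and 0.59 on the log2 scale, and were the 2 members past a 1.5-fold mark, where 5.97% of all genes were higher and 4.69% lower. Pla2g4a, at 0.586, fell short of that mark under equal medians (0.376), loess (0.582), quantile normalization (0.572) and the offset (0.578). Under equal medians Ptger4 (-0.760) and Ptger2 (-0.778) passed it as lower, which made 1 member higher and 2 lower. Both stayed short of it under loess (-0.541 for Ptger4, -0.556 for Ptger2) and quantile normalization (-0.578 and -0.541). For Ptgs2 the difference was at most 0.53 on the log2 scale, because the WT ratio is a lower bound. Ptger4 and Ptger2 had smaller LPS ratios in DKO cells, with log2 differences of -0.55 and -0.57, and the second Ptger4 probe set gave -0.47. Alox5, Alox5ap and Ltc4s lay between -0.29 and -0.12. The median of the 8 members was -0.14, beside -0.044 for all genes.

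The other genes of the pathway were taken from a list of 54, of which 48 were on the array, 25 above the floor on every array and 15 under it on every array. With LPS, in DKO cells, 1 of 31 with a difference was higher and 3 were lower. Of all genes 4.66% were higher and 4.77% lower. In WT cells 1 of 32 was higher and 3 were lower, where 3.36% of all genes were higher and 3.41% lower. With array medians equalised 1 listed gene was lower in WT cells, Hpgd. The list medians were -0.10 and 0.022, near the medians of all genes.

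Hpgd, which encodes the dehydrogenase that inactivates prostaglandin E2, was lower with LPS in both genotypes. It read 921 units with LPS and 2586 without in DKO cells, and 941 and 2806 in WT cells, 2.81-fold and 2.98-fold lower. Its second probe set gave 2.86-fold and 2.40-fold lower. Abcc1, which encodes a transporter that exports leukotriene C4, was the gene called higher, at 7195 units with LPS and 2748 without in DKO cells and 7413 and 3371 in WT cells. This made 2.62-fold in DKO cells and 2.20-fold in WT cells, and its second probe set gave 2.40-fold and 1.76-fold.

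Pla2g15, a lysosomal phospholipase gene, read 1017 units with LPS and 2922 without in DKO cells and 1023 and 2301 in WT cells, 2.87-fold and 2.25-fold lower. Its second probe set gave 3.99-fold and 1.79-fold lower, and with equal medians the WT difference fell short of 2-fold (log2 difference -0.95). Pla2g12a, which encodes a secreted phospholipase, passed the mark in DKO cells, with 129 units with LPS against 264 without, 2.04-fold lower. That call ended under loess (log2 difference -0.86), quantile normalization (-0.89) and the offset (-0.95). With the floor at the 65th percentile the difference is a bound, at least 1.57-fold lower, which does not reach the mark. In WT cells Pla2g12a read 253 and 243 units. The log2 difference of its LPS effects was -1.09, or at most -0.71 with the higher floor. It was the 1 of 27 listed genes called there by its brightest probe set. Of all genes 1.59% were higher and 0.851% lower. Pla2g2e at -0.88 and Pla2g6 at -0.73 followed. A second Pla2g6 probe set, also above the floor on every array, gave 0.52, the opposite direction. Dimmer probe sets of Pla2g15 and Ptgr2, above the floor on every array, gave -1.16 and 1.05 for this difference, past 2-fold. The brightest probe sets of these genes gave -0.35 and -0.058.

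Ptger3, which encodes the EP3 receptor for prostaglandin E2, a receptor that lowers cyclic AMP, read 233 units with LPS and 343 without in DKO cells, and 445 and 924 in WT cells. It was 2.08-fold lower with LPS in WT cells, a call that ended under equal medians (log2 difference -0.84), loess (-0.90) and quantile normalization (-0.95). Between untreated cells it was 2.70-fold lower in DKO, and with LPS 1.91-fold lower. Its second probe set was under the floor on every array. Cyp4f18, which encodes a hydroxylase that breaks down leukotriene B4, read 175 units in untreated DKO cells and 349 in untreated WT cells, 2.00-fold lower, at the mark itself. That call ended under equal medians (log2 difference -0.79), loess (-0.91), quantile normalization (-0.93), the offset (-0.94) and the median of its probe sets (-0.86).

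With LPS none of 30 listed genes passed 2-fold between DKO and WT cells, where 0.845% of all genes were higher and 0.934% lower. Pla2g12a (1.96-fold lower), Ptger3 and the prostaglandin transporter gene Slco2a1 (1.83-fold lower) differed most. The Slco2a1 reading in DKO cells with LPS, 53.0 units, lay at the floor of 52.9. Its other probe sets were under the floor on every array. Untreated, 2 of 32 were lower, Ptger3 and Cyp4f18, and none was higher, where 0.466% of all genes were higher and 0.984% lower. Aloxe3, a lipoxygenase gene, followed, higher by a log2 difference of at least 0.59. The genes that act beside the leukotriene members, Lta4h, Mgst2 and the receptor gene Cysltr1, stayed short of 2-fold in every comparison. Mgst2 read 746 and 1081 units in DKO cells with and without LPS, against 1144 and 1384 in WT cells.

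**Figure D4:**
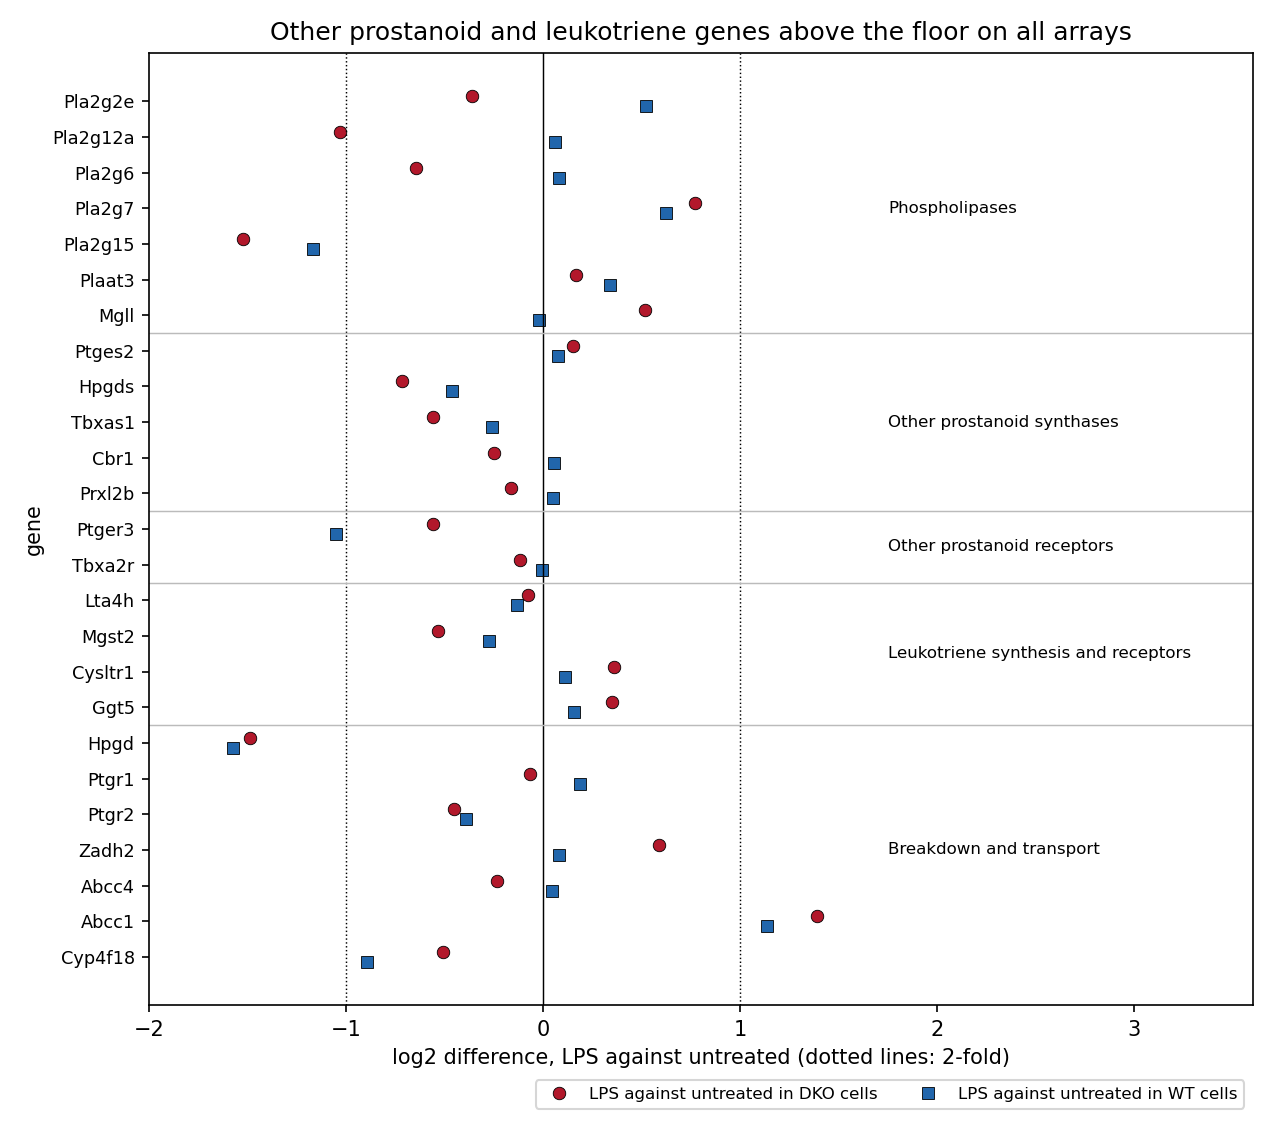
Log2 difference of LPS against untreated (x axis) for the 25 other pathway genes above the floor on all arrays (rows, grouped by role), in DKO cells (red circles) and WT cells (blue squares), each from 1 pair of arrays. Hpgd and Pla2g15 lie left of the 2-fold line and Abcc1 right of it in both genotypes.

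Genes with the most similar pattern were sought for the 5 members past 2-fold in any comparison, by the Euclidean distance of floored log2 values centred over the 4 arrays, among 11820 genes. Nearest to Ptgs2 were the cytokine gene Tnf at a distance of 0.25 and the chemokine genes Cxcl3 at 0.49 and Cxcl2 at 0.50. Tnf read 18766 units with LPS and 119 without in DKO cells, and 14788 and 122 in WT cells. Nearest to Ptges were Rab20 (0.30), Gm6377 (0.33) and the interleukin subunit gene Il12b (0.35). Both untreated readings of Ptges, Il12b and Cxcl3 lay under the floor, and so did that of Ptgs2 in WT cells. Such readings were set to the floor, so their likeness at rest is made by it.

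Nearest to Ptgir was Plaur, the urokinase receptor gene, at 0.16, with 1774 units with LPS and 409 without in DKO cells and 2095 and 872 in WT cells. Herpud1 (0.22) and AI504432 (0.24) followed. Nearest to Pla2g4a was Adgrl2 at 0.011, with 1890 and 700 units in DKO cells and 1651 and 921 in WT cells, then Hivep1 (0.048) and Zfp800 (0.059). Nearest to Ptger4 were Xylt2 (0.16), the death ligand gene Tnfsf10 (0.19) and Smurf1 (0.24). The Tnfsf10 reading in untreated WT cells, 50.2 units, lay under the floor. With 4 points per gene such likeness is a description of these arrays.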

How the data were processed

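The authors deposited linear intensities, which the values show to share a mean of 500.0 on each array after trimming 2% at either end. The sources used here do not name the software behind them. Leaving out 64 control probe sets, the platform annotation named 1 gene for 34945 probe sets, several for 932 and none for 9160. Entrez identifiers gave current symbols from RefSeq (GRCm38.p6), the source of the promoter windows and gene order too.

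Each gene is read by its brightest probe set on average. Values under the floor were set to it before log2. Genes were counted at 2-fold, with no test, since each group has 1 array. The members and lists were chosen with earlier results of these data known, and motifs after the windows were seen. Genes named were the members, listed genes past 2-fold or among the 3 largest differences, and the 3 nearest patterns. Ptges2 and Ptgr2 were named outside this rule, and Mgst2, Lta4h and Cysltr1 were added after their values were seen. Alternatives were equal medians, quantile and cyclic loess scaling (limma 3.58.1), floors at the 35th and 65th percentile, an offset of 16 units, other probe set rules and marks of 1.5-fold and 3-fold. Python 3.11.15 and R 4.3.3 were used.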

Additional observations from a re-analysis of the deposited data

Results flagged for a closer look

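For 4 member probe sets above the floor on every array, the DKO against WT difference had opposite directions with and without LPS, each read from single arrays, and this contrast of directions was not tested. The second Ptges probe set had log2 differences of 0.64 with LPS and -0.37 untreated, 1.01 apart. Pla2g4a had 0.20 and -0.39, which are 0.59 apart. The second Ptger4 probe set had -0.046 and 0.43, with a difference of -0.47 between them, and Alox5ap had -0.0068 and 0.15, with a difference of -0.16.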

How the results depend on the processing

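No paired analysis was possible because each group has 1 array and the labels carry no shared replicate numbers. Of the recomputed member differences 314 kept their direction and their side of 2-fold, and 1, Pla2g4a in WT cells, passed 2-fold with array medians set equal. The other 15 changed direction, all in values far short of 2-fold. Many of the 314 could not have changed. For a member with 1 probe set, above the floor on every array, the other floors and probe set rules return the same number. Only the scalings and the offset can move such a member. With array medians set equal, loess and quantile normalization, the LPS effect in WT cells became 0.20, 0.10 and 0.036 for Ptger2 and 0.13, 0.063 and 0.029 for Ltc4s, and the untreated DKO against WT difference of Ltc4s became 0.21, 0.033 and 0.045. Alox5ap became -0.037 (loess) and -0.022 (quantile) for LPS in DKO cells, and under quantile normalization -0.040 for LPS in WT cells, 0.016 and -0.0012 for DKO against WT with LPS and untreated, and 0.017 for the difference of LPS effects. The cause was not tested. Counts of members changed as follows. A 1.5-fold mark gave 2 higher and 2 lower for DKO against WT with LPS, and 1 and 2 untreated. For LPS it gave 5 higher and 1 lower in DKO cells and 5 higher in WT cells. For the difference of LPS effects it gave 2 higher. A 3-fold mark gave 3 higher for LPS in DKO cells, where 277 of 11241 genes were higher and 138 lower. In WT cells it gave 2 higher, where 186 of 11491 genes were higher and 65 lower. At 2-fold, leaving out shared probe sets gave 3 higher for LPS in DKO cells, and equal medians gave 5 in WT cells. The difference of LPS effects gave 1 higher, Ptges, with the floor at the 35th percentile (log2 difference 1.32) and with no floor and an offset of 16 units (1.19), where its untreated arrays were no longer floored. With probe sets shared between transcripts left out, Pla2g4a and Ltc4s had no value. Counts of all genes rest on the floor and scaling: over the alternatives at 2-fold they ran, higher and lower, from 419 to 1009 and from 357 to 904 for LPS in DKO cells (524 and 536 as reported), 304 to 779 and 194 to 925 in WT cells (386 and 392), 37 to 498 and 37 to 547 for DKO against WT with LPS (95 and 105), 21 to 337 and 42 to 707 untreated (53 and 112), and 34 to 1287 and 21 to 774 for the difference of LPS effects (166 and 89). Counts of listed pathway genes, 0 to 3 as reported, ran from 0 to 5. Signal near the floor limits the Ptgs2 and Ptges folds.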
